A study of Mus musculus with 2 samples.

Results

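Interleukin 6 family signalling was followed through 10 genes listed by symbol: the ligands Osm, Lif, Cntf and Clcf1, the receptor chains Osmr, Lifr, Il6ra and Il6st, the transcription factor Stat3 and the feedback inhibitor Socs3. All 10 were among the 19070 genes measured. The data are spatial maps of brain sections from male C57Bl6 mice (C57BL/6 J in the study's methods), 3 months old, that had received a controlled cortical impact, a piston blow to the exposed right parietal cortex, under ketamine and medetomidine with buprenorphine and bupivacaine for pain. One coronal section came from 1 mouse 3 days after the impact and one from another mouse 28 days after it, and no sham or uninjured section was analysed here. With 1 section per time point no test between animals was possible: every interval below is a 95% interval that covers counting error only, and a difference between the time points cannot be told apart from a difference between the 2 mice, sections or libraries.

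Cytokines of the interleukin 6 family act through receptor complexes that contain gp130, the shared signal-transducing chain encoded by Il6st. The partner chain decides which ligand is read: OSMR for oncostatin M, LIFR for leukaemia inhibitory factor and, together with the receptor for ciliary neurotrophic factor, for CNTF and cardiotrophin-like cytokine factor 1, and IL6RA for interleukin 6 itself. Janus kinases bound to these chains phosphorylate STAT3, which enters the nucleus and switches on target genes, among them Socs3, whose product blocks the same receptors. In the injured brain the pathway is known for its part in astrocyte reactivity, for which Gfap, an intermediate filament gene of astrocytes, is the usual marker.

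Socs3 is the member of the set that is read as a target of STAT3, and its promoter is therefore shown. The mouse sequence is the RefSeq one (GRCm38.p6) at chr11:117969367-117969616, the minus strand, and runs 5′ to 3′ over the 250 bases before the annotated start of the transcript. The capitals mark the match to TTCNNNGAA, a palindromic STAT element that reads the same on both strands, and this match starts 154 bases upstream of the start.
Socs3 upstream region: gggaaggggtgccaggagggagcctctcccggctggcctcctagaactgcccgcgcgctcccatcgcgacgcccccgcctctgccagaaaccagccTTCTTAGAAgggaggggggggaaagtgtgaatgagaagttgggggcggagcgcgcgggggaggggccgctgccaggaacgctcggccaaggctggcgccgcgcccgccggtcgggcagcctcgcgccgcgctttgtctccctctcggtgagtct
Windows of 250 bases before to 50 bases after a start were found for 8 of the 10 members, in 9 windows, with Osm and Clcf1 unmatched. Among these the motif occurred in the window of Socs3 alone, and it occurred in 8.3% of all 32851 mouse windows. The match describes letters, not a measured binding site.

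Tissue was measured as unique molecular identifiers (UMIs) per gene in square bins of 16 µm, each of which can hold parts of several cells. The sections held 120615873 UMIs at 3 days and 82422389 at 28 days, and bins under 100 UMIs, 1.93% and 2.15% of all, were left out. The sides differed in extent and depth. At 3 days the injured side spanned 2.08 mm at a median of 804 UMIs per bin and the opposite side 4.62 mm at 871, and at 28 days they spanned 3.84 mm at 564 and 2.86 mm at 657. Levels are given as counts per 1000000 UMIs of an area (CPM), and differences as log2 ratios. A lower level in an area cannot be told apart from fewer cells of a type, nor were levels compared between genes, since each is read by its own probes.

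All 10 members were above the minimum of 20 UMIs at both times. At 3 days 6 of them (Osm, Lif, Clcf1, Osmr, Il6ra and Socs3) were at least 2-fold higher on the injured than on the opposite side, where 10.5% of all genes were. Of these, Clcf1, Osmr and Il6ra were under 2-fold with both sides at equal width, which left 3, and Clcf1 and Il6ra also under other scalings, which left 4. The share of all genes was not counted under those settings. At 28 days 4 of the members (Osm, Cntf, Osmr and Socs3) were at least 2-fold higher on the injured side, beside 6.43% of all genes. The median log2 ratio of the members was 1.02 at 3 days and 0.95 at 28 days, beside 0.14 and 0.04 over all genes. The sign was positive for all 10 at 3 days and for 9 at 28 days, the exception being Lifr. Gfap itself stood at 1292 CPM on the injured side at 3 days with 314 CPM opposite, and at 1305 and 180 CPM at 28 days.

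**Figure D1:**
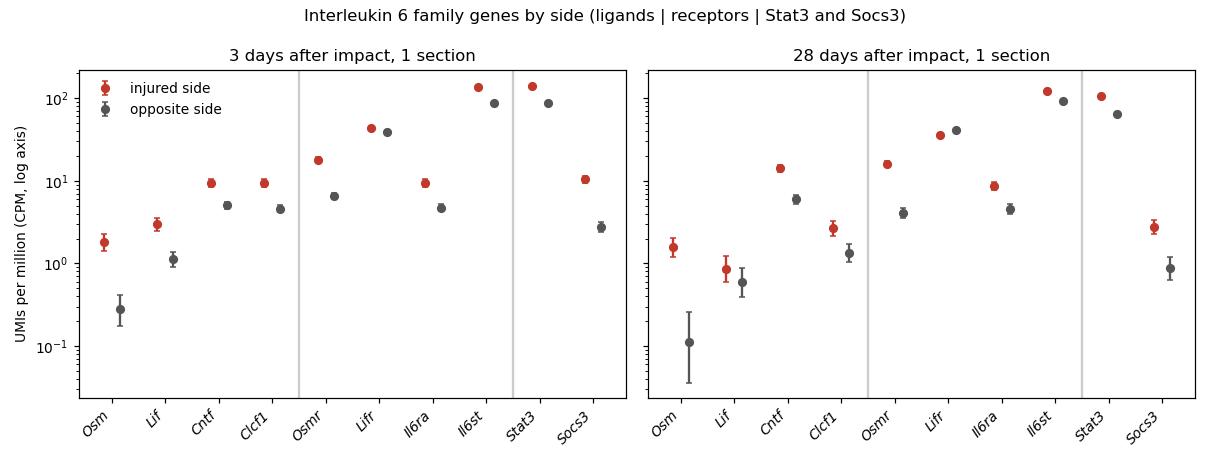
Level of each member (CPM, log axis) on the injured side (red) and the opposite side (grey) of the section at 3 days (left) and at 28 days (right), with 95% counting intervals, the vertical lines parting ligands, receptors, and Stat3 with Socs3. The red point lies above the grey one for every gene except Lifr at 28 days, and the widest gap is that of Osm.

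Among the ligands, Osm, the cytokine read through OSMR, had the highest side ratio and few counts. It was at 1.81 CPM (68 UMIs) on the injured side and 0.277 CPM (23 UMIs) on the opposite side at 3 days (log2 ratio 2.69, interval 2.01 to 3.46). At 28 days the levels were 1.56 CPM (58 UMIs) and 0.111 CPM (5 UMIs) (log2 ratio 3.69, interval 2.51 to 5.50). The injured side was thus higher at both times, and its Osm level at 28 days over 3 days, at −0.21 (−0.74 to 0.31) on the log2 scale, had an interval that includes 0.

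Lif, the leukaemia inhibitory factor gene, whose product acts through LIFR and gp130, was at 2.98 CPM on the injured side at 3 days and 1.12 CPM on the opposite side (log2 ratio 1.41, interval 1.0 to 1.82). By 28 days Lif was at 0.862 and 0.598 CPM, from 32 and 27 UMIs, and the interval of its ratio, −0.26 to 1.32, includes 0. Clcf1, which encodes cardiotrophin-like cytokine factor 1, went from 9.42 CPM on the injured and 4.59 CPM on the opposite side to 2.67 and 1.35 CPM. Its side ratio was 1.04 (0.82 to 1.25) and then 0.98 (0.51 to 1.47), and its level was lower at 28 days on both sides. The ratio at 3 days depended on the area taken. It was 0.23 with both sides at equal width, and 2.22 with a hippocampal area, almost wholly on the opposite side, also left out. Without the phagocyte-rich tissue described below it was −0.64.

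Cntf, the ciliary neurotrophic factor gene, ran the other way in time. It stood at 9.37 CPM on the injured side with 5.05 CPM opposite at 3 days (log2 ratio 0.89, interval 0.68 to 1.10). By 28 days the levels were 14.1 and 5.95 CPM (log2 ratio 1.24, interval 1.03 to 1.46), but without the phagocyte-rich tissue the 28-day ratio was −0.19. On the injured side it was the only member with a log2 level change above 0 from 3 to 28 days, at 0.59 (0.39 to 0.79).

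Among the receptor chains, Osmr had the highest side ratio and Lifr the lowest. Osmr was at 18.0 CPM on the injured side with 6.61 CPM opposite at 3 days (log2 ratio 1.44, interval 1.28 to 1.61). By 28 days these were 16.1 and 4.07 CPM (log2 ratio 1.98, interval 1.75 to 2.23). The change in ratio, 0.54 (0.25 to 0.83), went with a level lower by 0.70 on the log2 scale on the opposite side and by 0.16 on the injured side.

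Il6ra, the chain that binds interleukin 6, was at 9.42 and 4.70 CPM at 3 days and at 8.65 and 4.54 CPM at 28 days (log2 ratio 1.0, interval 0.79 to 1.21, then 0.93, interval 0.67 to 1.19). Il6st, the shared chain, was at 136 and 87.9 CPM at 3 days and at 123 and 91.2 CPM at 28 days (log2 ratio 0.63, interval 0.57 to 0.68, then 0.44, interval 0.37 to 0.50). Lifr was at 44.0 and 39.3 CPM at 3 days and at 35.6 and 40.6 CPM at 28 days. Its log2 ratios of 0.16 (0.08 to 0.25) and −0.19 (−0.29 to −0.09) have opposite signs, the first being close to the median of 0.14 over all genes. Neither side differed from the other by as much as 1.5-fold.

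Of the transducer and its target, Stat3 was at 142 CPM on the injured side with 87.4 CPM opposite at 3 days, and at 105 and 65.0 CPM at 28 days. Its log2 side ratios of 0.70 (0.65 to 0.75) and 0.69 (0.62 to 0.76) were alike, although its level was lower at 28 days on both sides, by 0.44 and 0.43 on the log2 scale. Socs3 was at 10.4 and 2.77 CPM at 3 days (log2 ratio 1.91, interval 1.67 to 2.15), and at 2.75 and 0.885 CPM at 28 days (log2 ratio 1.62, interval 1.09 to 2.20).

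From 3 to 28 days, Lif, Clcf1 and Socs3 were at least 2-fold lower on the injured side, where 2.79% of all genes were. Their log2 changes there were −1.77 (−2.41 to −1.21) for Lif, −1.82 (−2.16 to −1.50) for Clcf1 and −1.92 (−2.25 to −1.60) for Socs3. On the opposite side Clcf1 at −1.76 (−2.18 to −1.37), Socs3 at −1.63 (−2.17 to −1.16) and Osm at −1.22 (−3.08 to 0.10, from 23 and 5 UMIs) were past the same fold, beside 1.03% of all genes. The hippocampal area described below held 65.6% of the Clcf1 and 46.1% of the Socs3 UMIs of that side at 3 days. In the rest of the side Clcf1 went from 1.68 to 1.22 CPM and Socs3 from 1.59 to 0.833 CPM, each under 2-fold. All 4 receptor chains, Stat3 and Cntf moved by less than 2-fold between the times on both sides.

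**Figure D2:**
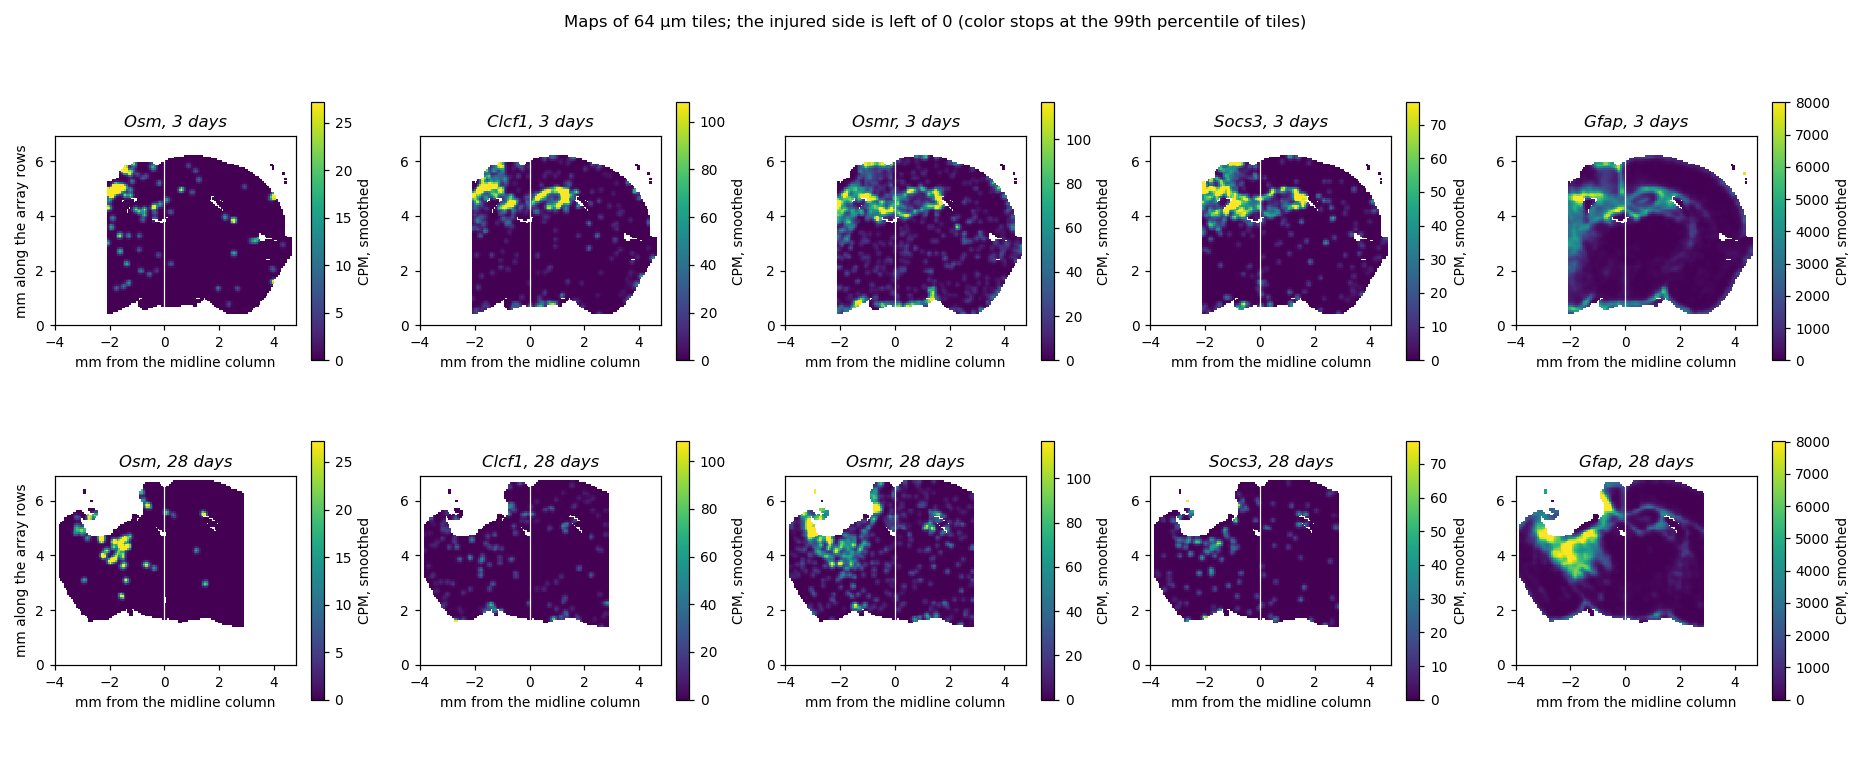
Smoothed CPM of Osm, Clcf1, Osmr, Socs3 and Gfap in tiles of 64 µm at 3 days (upper row) and 28 days (lower row), by distance from the midline and along the array rows in mm, the injured side left of 0 and colours ending at the 99th percentile of tiles. At 3 days Clcf1, Osmr, Socs3 and Gfap are high on the upper injured side and in a curved strip just right of the midline, and at 28 days Clcf1 and Socs3 are faint in both places while Osm, Osmr and Gfap stay high on the injured side.

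Within the injured side the members were concentrated in tissue rich in phagocyte genes. This zone was set by tiles of 64 µm in which Cd68, Lyz2, Ctsz, Lgals3, Cd52 and Laptm5 together passed the 99th percentile seen opposite. The cut came from the opposite side of the same section, so it can differ between the times. It covered 571 of 2509 tiles at 3 days and 903 of 3259 at 28 days. It held 13.7% and 19.3% of the UMIs of the injured side, so it was shallower than the rest, at medians of 506 and 399 UMIs per bin. In the zone 9 of the 10 members, all but Lifr, were at least 2-fold above the opposite side at both times, beside 21.8% of all genes at 3 days and 17.4% at 28 days. The median log2 ratio of the members was 2.53 and 2.29, and that of all genes 0.15 and −0.01. Against the zone reflected across the midline, an area of the opposite side that is itself high in some members at 3 days, the log2 ratio at that time was 0.76 for Stat3 and 0.77 for Il6st, under 2-fold, and 1.38 for Clcf1, 1.20 for Cntf and 1.83 for Osmr. At 28 days the same comparison gave 1.69 for Stat3, 1.16 for Il6st, 3.19 for Clcf1, 2.91 for Cntf and 4.15 for Osmr.

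The ligands differed in how far they were held in the zone. At 3 days it contained 67.6% of the injured-side UMIs of Osm, 67.9% of those of Lif and 73.2% of those of Clcf1, but 27.8% of those of Cntf. At 28 days it contained 93.1% of those of Osm and 70.2% of those of Cntf, but 37.5% of those of Lif (12 of 32) and 48.5% of those of Clcf1 (48 of 99). Osm was at 8.91 CPM in the zone and 1.02 CPM (6 UMIs) in the adjoining 250 µm at 3 days, and at 7.54 and 0.297 CPM (2 UMIs) at 28 days. Clcf1 was at 50.2 CPM in the zone and 9.52 CPM in the adjoining 250 µm at 3 days, and at 6.71 and 1.04 CPM at 28 days. Cntf was at 19.0 and 13.4 CPM at 3 days and at 51.4 and 7.12 CPM at 28 days, so that it fell off gently with distance at the first time and steeply at the second.

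A steeper fall at 28 days was also seen for Osmr, Stat3 and Socs3, and for Gfap. The zone was cut in each section apart, and the part of this in the steeper falls was not tested. Gfap was at 3490 CPM in the zone and 2296 CPM in the adjoining 250 µm at 3 days and at 5300 and 805 CPM at 28 days. Osmr was at 58.3 CPM in the zone and 30.6 CPM in the adjoining 250 µm at 3 days, and at 61.2 and 7.27 CPM at 28 days. Stat3 was at 283 and 199 CPM at 3 days and at 219 and 90.1 CPM at 28 days. Socs3 was at 45.3 and 16.7 CPM at 3 days and at 8.80 and 0.742 CPM at 28 days, the last from 5 UMIs. Il6ra, at 15.9 and 16.5 CPM at 3 days and 21.7 and 8.31 CPM at 28 days, was not higher in the zone than beside it at the earlier time. Lifr, at 43.8 and 53.6 CPM and then 42.5 and 36.9 CPM, was within 1.5-fold between zone and surroundings at both times. With the zone left out of the injured side, the median log2 side ratio of the members was 0.58 at 3 days and 0.25 at 28 days. At 28 days none of the members was then 2-fold above the opposite side, and at 3 days only Osm was, at 1.29. Leaving the zone out moved the median log2 side ratio of all genes by −0.01 at 3 days and 0.00 at 28 days. The share of all genes past 2-fold was not counted without the zone.

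**Figure D3:**
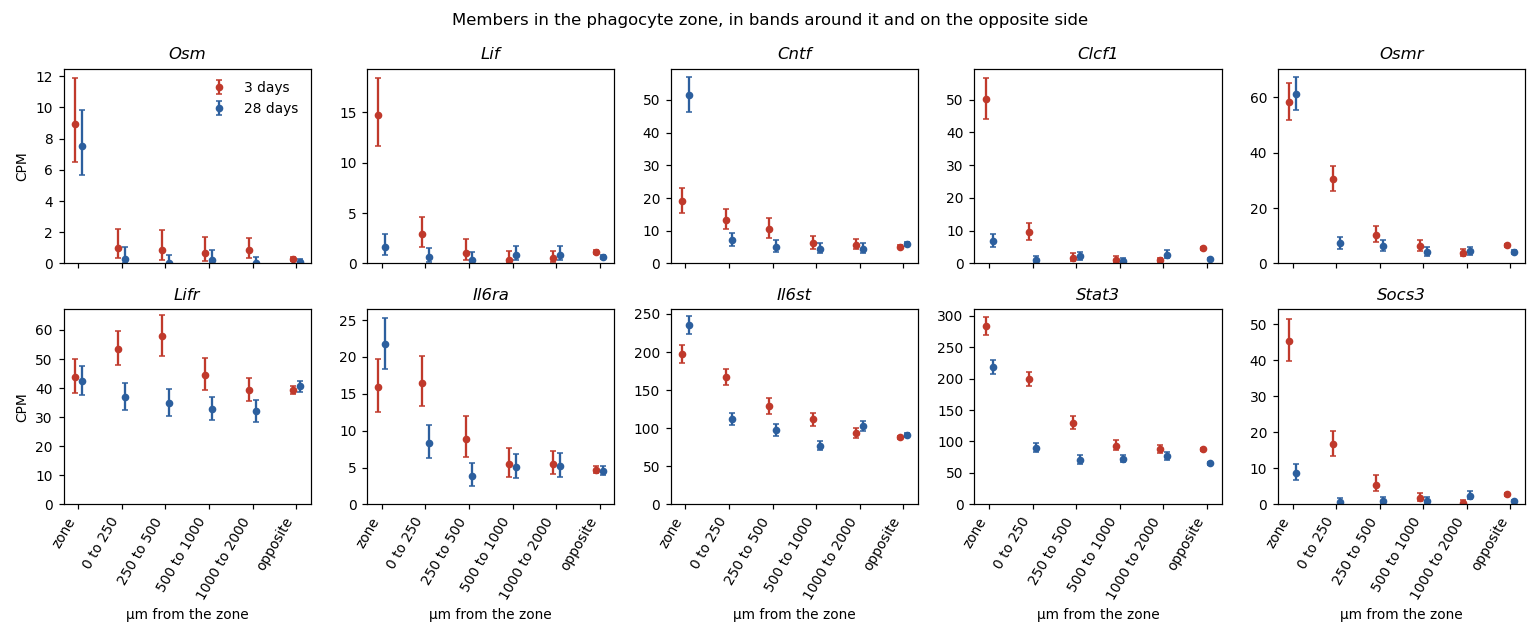
CPM of each member (vertical axis, from 0) in the phagocyte zone, in bands of distance from it on the injured side (µm) and on the opposite side, at 3 days (red) and 28 days (blue), with 95% counting intervals. Osmr is at 58.3 and 61.2 CPM in the zone, but in the first 250 µm it is at 30.6 CPM at 3 days and 7.27 CPM at 28 days.

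Markers of other cell types moved with the zone, and their part in these differences was not tested. The summed microglia and macrophage genes (C1qa, C1qb, C1qc, Csf1r, Tyrobp, Trem2, Cd68 and Lyz2) stood at 2238 CPM in the zone at 3 days and 6433 CPM at 28 days, beside 306 and 259 CPM on the opposite side; Cd68 and Lyz2 of this list also served to set the zone. Neutrophil genes were at 92.4 and 226 CPM in the zone, beside 9.32 and 12.7 CPM opposite. Fibroblast genes were at 547 and 385 CPM, beside 92.5 and 71.9 CPM, and oligodendrocyte genes at 11712 and 8814 CPM, beside 3447 and 4614 CPM. Neuronal genes were lower in the zone, at 1913 and 2292 CPM beside 6224 and 6399 CPM. Choroid plexus genes were unequal between the sides, at 7197 CPM on the injured side with 1371 CPM opposite at 3 days and at 5097 and 2986 CPM at 28 days. Without tiles rich in choroid plexus, ependyma or fibroblast genes, the log2 side ratio was 2.64 for Osm, 1.42 for Osmr and 2.05 for Socs3 at 3 days, and 3.86, 2.10 and 1.72 at 28 days. Il6ra, at 0.85, was under 2-fold at 3 days without those tiles.

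Co-location with Gfap was measured by tile. On the injured side 795 tiles at 3 days and 961 at 28 days held Gfap at 2000 CPM or more, and 1144 and 1726 held it under 500 CPM. In the Gfap-rich tiles 9 of the 10 members, Lifr again excepted, were at least 2-fold above the Gfap-poor tiles at both times, beside 17.5% of all genes at 3 days and 19.4% at 28 days. The median over all genes was 0.03 and −0.02 on the log2 scale. Co-location with Gfap was also present opposite, where all genes had medians of 0.13 and 0.06. At 3 days the opposite log2 ratio was 5.24 for Clcf1, 4.46 for Socs3, 3.86 for Osmr and 2.10 for Cntf. The injured side gave 3.34, 3.68, 3.15 and 2.16. At 28 days the opposite side gave 3.34, 3.34, 2.97 and 3.62, with 9 Clcf1 and 6 Socs3 UMIs in rich tiles. The injured side then gave 2.53, 3.10, 3.77 and 3.72.

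Osmr and Socs3 followed Gfap in steps. Osmr was at 6.03 CPM in the Gfap-poor tiles, 13.1 CPM at 500 to 2000 Gfap CPM, 48.4 CPM at 2000 to 8000 and 104 CPM above 8000 at 3 days. At 28 days the same steps read 4.2, 13, 48.9 and 94.4 CPM, so that on the injured side the level of Osmr at a given Gfap level was much the same in both sections. On the opposite side it was lower at 28 days, at 49.2 CPM (41.8 to 57.6) and then 24.1 CPM (14.9 to 36.9) in tiles of 2000 to 8000 Gfap CPM. Socs3 read 2.44, 9.44, 29.6 and 48.0 CPM at 3 days and 0.990, 2.59, 8.74 and 7.80 CPM at 28 days. Unlike Osmr, it was lower at 28 days at every step of Gfap.

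Cntf was at 5.12, 7.17, 21.4 and 36.6 CPM over these steps at 3 days and at 3.92, 7.54, 40.7 and 99.3 CPM at 28 days, the increase in time lying in the tiles with the most Gfap. Stat3 was at 94.4, 148, 248 and 322 CPM at 3 days and at 67.0, 116, 209 and 282 CPM at 28 days. Lifr was at 37.7, 50.4, 55.6 and 44.2 CPM, then 31.2, 44.0, 44.4 and 51.1 CPM, a spread of under 2-fold. For Osm the ratio of rich to poor tiles was 2.02 at 3 days, from 30 and 19 UMIs, and 5.66 at 28 days, from 51 and 3 UMIs. Clcf1 was at 24.9 CPM in rich and 2.44 CPM in poor tiles at 3 days and at 7.34 and 1.27 CPM at 28 days. For Lif the log2 ratio was 2.57 at 3 days, and at 28 days it was 1.04 with a lower bound of −0.27.

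Since the Gfap-rich tiles and the phagocyte zone overlap, the ratios were also taken outside the zone. There the log2 ratio of rich to poor tiles was 2.84 for Osmr, 4.06 for Socs3, 2.52 for Clcf1 and 2.15 for Cntf at 3 days. By 28 days the ratio was 1.65 for Osmr, 1.74 for Socs3, 2.31 for Clcf1 and 2.60 for Cntf.

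**Figure D4:**
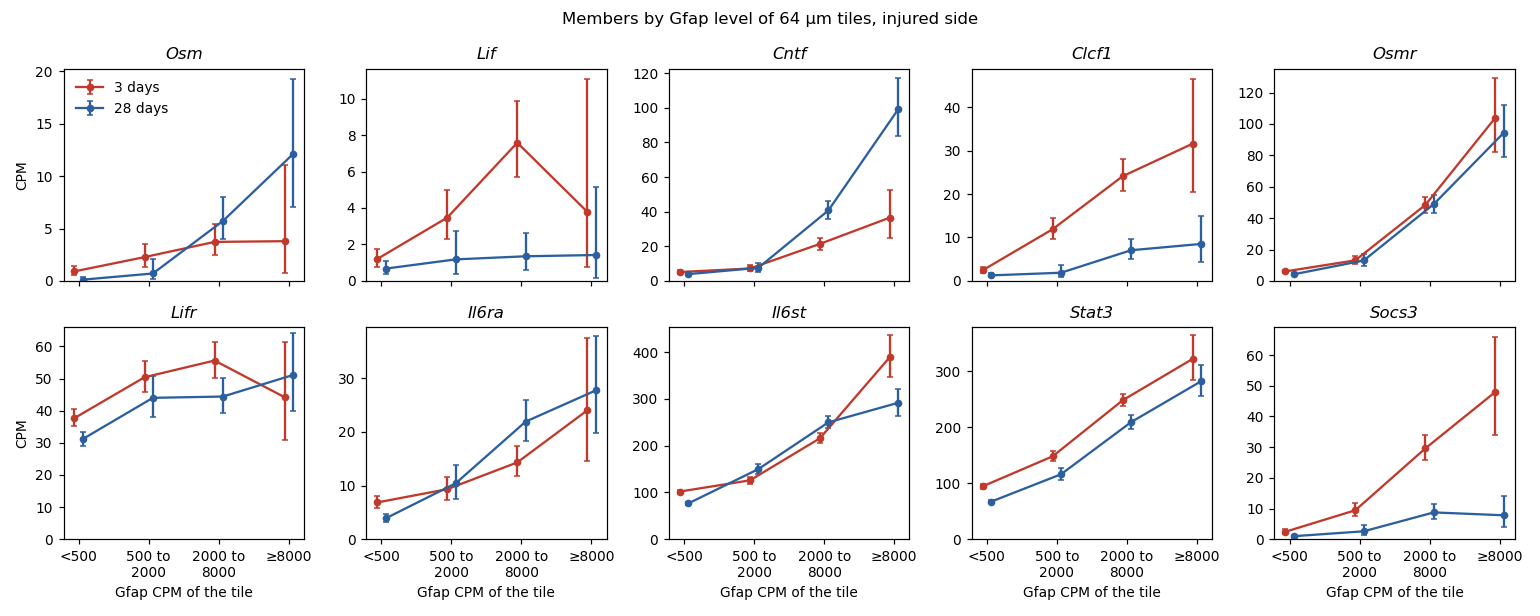
CPM of each member (vertical axis, from 0) on the injured side by the Gfap level of the 64 µm tile it lies in (under 500, 500 to 2000, 2000 to 8000 and 8000 Gfap CPM or more), at 3 days (red) and 28 days (blue), with 95% counting intervals. The Osmr lines of the 2 sections lie close together, the Socs3 lines part, and Lifr stays between 31.2 and 55.6 CPM.

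At the finer scale of single bins, Gfap CPM was compared between bins that hold a UMI of a member and all others of the injured side. The log2 difference was 1.44 for Osmr, 1.35 for Socs3, 1.03 for Clcf1, 0.98 for Cntf and 0.75 for Osm at 3 days. The 28-day section gave 2.32 for Osm, 1.97 for Osmr, 1.92 for Cntf and 1.27 for Clcf1. At 3 days bins with a UMI of Osm, Lif, Clcf1 or Socs3 were shallower by median than the others and those of the remaining members deeper, and at 28 days all but those of Osm were deeper. With every bin thinned to 300 UMIs, which leaves out 11% and 19.9% of the injured-side bins, Osmr read 1.5 and 1.70 and Osm 0.36 and 2.13, so that the difference of Osm at 3 days was smaller. Cntf then read 1.36 and 1.80, Clcf1 1.09 and 0.96, and Socs3 1.16 and 1.26. For Lifr the difference was −0.21 at 3 days and −0.27 at 28 days before thinning and 0.13 and 0.51 after it, so that its sign turned when bins were thinned and the shallowest left out.

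Bins with Osm were high in phagocyte genes and low in neuronal genes. At 28 days the microglia and macrophage genes were at 10516 CPM in the 57 Osm bins of the injured side and at 1541 CPM in the others, a log2 difference of 2.77 (2.65 to 2.89), and neuronal genes (Snap25, Syt1, Rbfox3, Stmn2, Slc17a7 and Gad1) were at 780 and 4754 CPM. At 3 days the microglia and macrophage genes were at 3002 CPM in the 64 Osm bins and 754 CPM in the others, a log2 difference of 2.00 (1.75 to 2.22), and the neuronal genes at 2422 and 3982 CPM. Neutrophil genes were also higher in Osm bins, at 120 beside 25 CPM at 3 days (log2 difference 2.38, 0.82 to 3.39, from 6 UMIs) and at 685 beside 53.9 CPM at 28 days (3.69, 3.15 to 4.14, from 36 UMIs). S100a9, a gene of the neutrophil list, was seen in 12.3% of the Osm bins and 0.317% of all injured-side bins at 28 days. At 3 days it was in 3.12% and 0.337%, from 3 UMIs in Osm bins. S100a8 was in 7.02% and 0.226% at 28 days and in 1.56% and 0.268% at 3 days. Retnlg and Mmp8 had 0 UMIs in Osm bins at both times, and Cxcr2 had 0 at 3 days and 1 at 28 days. C1qa was in 70.2% of Osm bins and 19.5% of injured-side bins at 28 days, and in 39.1% and 15.9% at 3 days. In the tiles richest in neutrophil genes Osm was higher than elsewhere on the injured side by 3.82 and 3.58 on the log2 scale, and in those richest in microglia and macrophage genes by 3.88 and 3.80. Csf3r, which microglia also express, made up 63.8% and 74.4% of all UMIs of the neutrophil list (with S100a8, S100a9, Retnlg, Cxcr2 and Mmp8) on the injured side at 3 and 28 days, but 2 of the 6 and 13 of the 36 in the Osm bins.

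Genes of other cell types also moved with the ligands and receptors. Osm bins were higher at 3 days in fibroblast genes, at 1001 beside 264 CPM (log2 difference 1.94, 1.49 to 2.32), and so were Lif bins, at 839 beside 263 CPM (1.68, 1.34 to 1.98). A minority of bins carried this, since 14.1% of the Osm bins and 13.9% of the Lif bins held such a UMI, beside 9.66% and 9.65% of the others. In the tiles richest in fibroblast genes at 3 days, Osm was higher by 0.85 (−1.23 to 2.11), from 4 UMIs. In those richest in oligodendrocyte precursor genes it was higher by 3.06 (1.93 to 3.96) and in endothelial ones by 2.54 (1.35 to 3.46). At 28 days the tiles richest in astrocyte genes gave 3.03 (1.97 to 3.90) for Osm. Osmr bins were higher in fibroblast genes (Dcn, Lum, Col1a1, Col1a2, Pdgfra and Col3a1), by 2.19 (2.08 to 2.30) at 3 days and 2.05 (1.90 to 2.20) at 28 days on the log2 scale. In the tiles richest in those genes Osmr was at 99.1 CPM beside 14.8 CPM elsewhere on the injured side at 3 days, and at 45.6 beside 15 CPM at 28 days. At 3 days it was also high in the tiles richest in endothelial (83.5 CPM), astrocyte (81.5 CPM), mural cell (71.9 CPM) and microglia and macrophage genes (59.4 CPM). In those richest in neuronal genes it was at 9.05 CPM. At 28 days it was higher still in the tiles richest in neutrophil genes (104 CPM), astrocyte genes (94.3 CPM) and microglia and macrophage genes (79.7 CPM). Il6ra bins were higher in choroid plexus genes by 2.52 and 1.99 and in ependymal genes by 2.49 and 2.58. In the tiles richest in ependymal genes, the ciliated lining of the ventricles, Cntf was at 59.0 CPM beside 11.9 CPM at 28 days and at 18.9 beside 8.83 CPM at 3 days. In the tiles richest in astrocyte genes it was higher still, at 98.9 beside 11 CPM at 28 days and 35.5 beside 8.42 CPM at 3 days, and in those richest in neutrophil genes it was at 71.4 CPM at 28 days.

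Osmr was also read by distance from bins with an Osm UMI, ligand to receptor. At 28 days it was at 88.5 CPM within 32 µm, 80.8 CPM from there to 96 µm, 37.1 CPM to 240 µm and 9.16 CPM to 496 µm. Within the phagocyte zone alone the same rings read 90.2, 88.2, 56.3 and 26.6 CPM. At 3 days the rings over the injured side read 36.0, 32.5, 22.3 and 12.0 CPM, but within the zone they read 57.8, 61.2, 57.0 and 59.1 CPM. The fall of Osmr with distance from Osm bins was thus present inside the zone at 28 days and absent inside it at 3 days. Gfap in the same rings within the zone read 6386, 6337, 5218 and 3865 CPM at 28 days and 2687, 2908, 3484 and 4545 CPM at 3 days, and Stat3 read 320, 247, 215 and 159 CPM at 28 days. The part of Gfap in the fall of Osmr was not tested. Socs3 around the bins with a Lif UMI read 34.4, 25.8, 12.8 and 3.2 CPM at 3 days, and around those with a Clcf1 UMI 36.6, 23.2, 6.36 and 1.73 CPM. Within the zone the rings at 3 days read 60.3, 51.8, 38.6 and 35.3 CPM around Lif bins, the innermost (41.5 to 84.7) and outermost (20.2 to 57.3) with overlapping intervals. They read 55.6, 42.9 and 38.9 CPM in the inner rings around Clcf1 bins, also with overlapping intervals, and 42.4, 50.6, 44.8 and 40.8 CPM around Osm bins.

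The opposite side was not uniform at 3 days. A strip of it, seen first on the maps and then outlined by Neurod6 and Spink8, genes of hippocampal pyramidal neurons, was high in several members. The outlined layer lay 0.160 to 1.23 mm from the midline at 3 days (121 tiles) and 0.128 to 1.26 mm at 28 days (122 tiles). With the tissue within 250 µm it held 6.16% and 9.62% of the UMIs of the opposite side. The midline was 1 straight column per section, and tilt of the section was not corrected. Of the few bins of this area on the injured side, 35.6% lay in the phagocyte zone at 3 days and 0% at 28 days. The outline kept only the largest connected patch of each section. A layer on the injured side was therefore not outlined, and its presence was not tested. The area was chosen after its values were seen, so the values that follow describe it and test nothing.

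At 3 days 6 of the 10 members, Osm, Lif, Clcf1, Osmr, Stat3 and Socs3, were at least 2-fold higher in this hippocampal area than in the rest of the opposite side, beside 9.14% of all genes. The median log2 ratio of the members was 1.83, and that of all genes −0.03. Clcf1 was at 54.3 CPM in the layer, 40.4 CPM within 250 µm of it and 1.68 CPM elsewhere on that side. Socs3 was at 11.5, 35.4 and 1.59 CPM, Osmr at 18.9, 45.5 and 5.13 CPM, and Gfap at 1402, 3213 and 197 CPM. Clcf1 was thus at least as high in the neuronal layer as around it, while Osmr, Socs3 and Gfap were higher in the tissue around the layer. Stat3 was at 239, 319 and 75.4 CPM and Lif at 4.79, 8.08 and 0.797 CPM. Lifr, at 39.3, 39.9 and 39.3 CPM, did not follow, and the ratio of Osm rests on 4 UMIs in the area. By cell type list, Clcf1 on the opposite side at 3 days was at 79.2 CPM in the tiles richest in microglia and macrophage genes, beside 3.08 CPM elsewhere. In the tiles richest in neuronal genes it was at 5.53 beside 4.51 CPM. The cells that carry Clcf1 in the layer were not identified.

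At 28 days Osm, with 3 UMIs in the area, was under the minimum, and 4 of the other 9 members, Lif, Cntf, Clcf1 and Osmr, were at least 2-fold higher there than in the rest of that side, beside 4.18% of all genes, with medians of 0.82 for the members and −0.07 for all genes. Clcf1 was at 0.870 CPM in the layer, 4.40 CPM around it and 1.22 CPM elsewhere, the first from 2 UMIs. Osmr was at 2.61, 12.7 and 3.72 CPM, and Cntf, at 4.35, 20 and 5.34 CPM, was highest in the tissue around the layer.

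Set side by side in time, the hippocampal area of the opposite side held 250 Clcf1 UMIs at 3 days and 11 at 28 days, a log2 change of −4.21 (−5.29 to −3.41). Socs3 had 106 and 6 UMIs, a log2 change of −3.80 (−5.39 to −2.74). Of 9 members above the minimum 5, these and Lif, Osmr and Stat3, were at least 2-fold lower at 28 days, beside 5.74% of all genes, with medians of −1.61 and −0.01. Cntf was higher, by 0.77 (0.13 to 1.44). Gfap went from 10745 to 2716 UMIs there, a log2 change of −1.75 (−1.81 to −1.69), and Vim from 6730 to 757, a change of −2.92 (−3.03 to −2.81), and their part in the members' changes was not tested. Microglia and macrophage genes in the area were at 1009 CPM at 3 days and 387 CPM at 28 days, beside 259 and 246 CPM in the rest of that side, and their part in these values was not tested. Of the UMIs of Clcf1 in Gfap-rich tiles of the opposite side at 3 days, 86.7% lay in the area. The rest of those tiles held it at 14.8 CPM.

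**Figure D5:**
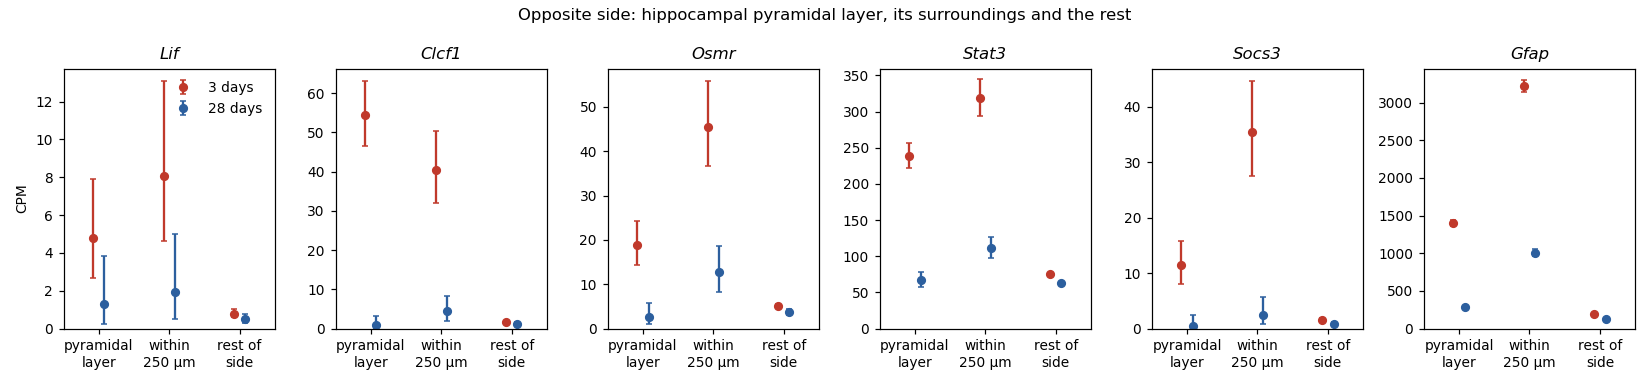
CPM of Lif, Clcf1, Osmr, Stat3, Socs3 and Gfap (vertical axis, from 0) on the opposite side in the hippocampal pyramidal layer, within 250 µm of it and in the rest of that side, at 3 days (red) and 28 days (blue), with 95% counting intervals. Clcf1 is at 54.3 CPM in the layer at 3 days and at 0.870 CPM at 28 days.

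The side ratios at 3 days moved with this strip. With both sides limited to the same width from the midline, the log2 side ratio of Clcf1 was 0.23, that of Osmr 0.98 and that of Socs3 1.27. With the hippocampal area left out as well, they were 2.22, 1.54 and 2.44. That area lay almost wholly on the opposite side. Over the full sides at 3 days it held 6.16% of the UMIs opposite and 0.191% of those of the injured side. Any hippocampal tissue elsewhere on the injured side stayed in.

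The other genes of the pathway were read in the same way. Of 22 listed, 21 were measured and 19 passed the minimum at 3 days, of which 4 were at least 2-fold higher on the injured side, beside 10.5% of all genes, and 0 lower. Among these were Il31ra, the partner chain of OSMR in the interleukin 31 receptor, at 2.31, Il11, a further gp130 cytokine, at 2.11, and the transcription factor gene Stat5a at 1.17. Among the lowest were Socs2 at −0.43 and Il27ra at −0.37. At 28 days 1 of 18 was past 2-fold, beside 6.43% of all genes: Ebi3, a subunit of interleukins 27 and 35, at 1.53, and Stat5a was at 0.74. Socs2 at −0.26 and Cntfr at −0.20 were lowest. The median of these genes was 0.27 and 0.22, beside 0.14 and 0.04 over all genes. Il6 was at 0.91, from 39 and 46 UMIs, and 0.24, from 29 and 30.

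Of 12 genes known as STAT3 targets in other settings, 9 at 3 days and 8 at 28 days were at least 2-fold higher on the injured side, beside 10.5% and 6.43% of all genes, with medians of 2.03 and 2.66. The highest were Lcn2, an iron-sequestering acute phase gene, at 5.11, the chemokine gene Ccl2 at 3.52 and the acute phase gene Saa3 at 3.15 at 3 days. At 28 days they were Lcn2 at 7.15, Saa3 at 4.90 and Timp1, a metalloproteinase inhibitor gene, at 4.01. Junb at 0.23 and 0.14, Pim1 at 0.66 and 0.69 and Cebpb at 0.77 and 0.65 were lowest. Many of these genes answer to other transcription factors too, so the counts do not measure STAT3 activity.

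The genes whose spatial pattern was most like that of a member were sought over tiles of 16 by 16 bins, 488 at 3 days and 426 at 28 days, by Pearson r of square-root CPM among 12124 and 11535 genes with at least 500 UMIs. Tiles of a section are neighbours and share depth and region, so r describes the maps. Osmr was most like Vim, an intermediate filament gene of reactive glia, at 0.74 and 0.75, with Tnfrsf1a and S100a6 at 0.74 next at 3 days and Msn and the phagocyte gene Lyz2 at 0.74 next at 28 days. Gfap was at 0.71 in both sections, in place 5 at 3 days and 14 at 28 days. Stat3 was most like Vim at 0.83, Msn at 0.83 and Cebpd at 0.81 at 3 days. Socs3 was most like Cebpd at 0.79, Vim at 0.78 and Sbno2 at 0.76, and Clcf1 like Cd44 at 0.76, Tmsb4x at 0.75 and Tubb6 at 0.74.

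Il6st was most like Aebp1 at 0.81, Ahnak at 0.80 and Anxa5 at 0.79 at 3 days and Tln1 at 0.79, Ahnak at 0.79 and Id3 at 0.77 at 28 days. Cntf had no gene above 0.5 at 3 days and at 28 days was most like Vim at 0.68, C4b at 0.66 and Gfap at 0.64. Il6ra was most like Tmem176b at 0.57, Vim at 0.56 and Cd63 at 0.54 at 28 days. Lifr reached 0.47 and 0.45 at most, with Pvalb, a gene of inhibitory neurons, and so had no gene above 0.5. Osm and Lif, and at 28 days Clcf1 and Socs3, had under 500 UMIs and were not compared.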

How the data were processed

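Coronal formalin-fixed, paraffin-embedded sections were profiled with Visium HD, in which probe pairs of the mouse probe set report each gene. As per the file headers and the submitters' processing notes, the authors ran Space Ranger 4.0.1 with mm10 and deposited raw UMI counts per gene and bin of 16 µm; strand and splice form are not read. The 10 members, the pathway and marker lists and the comparisons were chosen with earlier results of these data known, and the hippocampal area and 3 alternatives were added after the maps were seen. Cell type lists named bins by summed genes only. Bins under 100 UMIs were left out. The injured side was taken as columns under 130 at 3 days and under 240 at 28 days, with no correction for tilt of the section. Log2 ratios were of CPM after 0.5 UMI was added to each count, and a gene needed 20 UMIs in the areas compared together. Intervals are exact, from the binomial distribution of 2 counts or the Poisson distribution, at 95%, and cover counting error only; that of a change in side ratio is a normal one from the same counts. The zone was smoothed over 5 by 5 tiles and kept patches of at least 25 tiles. Tiles rich in a cell type list were the top 5 percent. Named genes were the members, the 3 highest and 3 lowest of each pathway list and the 3 genes most like each member with r above 0.5, with genes past 2-fold added; some genes of these lists are not reported here. Alternatives covered scaling, pseudocount, minimums, midline, width, zone, tile size and Gfap limits. The side ratios and their intervals were tested on side sums of the 3-day section simulated with counting error only. The zone, hippocampal outline, Gfap steps, rings, thinning and likeness were not tested in this way. Python 3.11.15 with numpy 2.4.6, scipy 1.17.1, pandas 2.3.3 and matplotlib 3.10.9, and R 4.3.3 with edgeR 4.0.16 for TMM factors, were used.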

Additional observations from a re-analysis of the deposited data

Results flagged for a closer look

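The side ratio of Lifr, the chain read by LIF, changed by −0.35 (−0.49 to −0.22) on the log2 scale between the sections. It was 0.16 at 3 days and −0.19 at 28 days, beside medians of 0.14 and 0.04 over all genes. At 3 days Lifr was thus close to the median gene. Other scalings moved the median of all genes at 3 days by −0.11, −0.14 and −0.10, so the distance of Lifr from 0 at that time depends on the scaling. The difference between animals was not tested, since each time point is 1 section.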

How the results depend on the processing

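Limits first: 1 section per time point, sides of unequal captured width, and 5 to 68 UMIs per side for Osm set how far these values reach. Members at least 2-fold higher on the injured side at 3 days numbered 6, beside 10.5% of all genes. They numbered 3 with both sides at equal width and 1 without the phagocyte zone. At 28 days they numbered 4, beside 6.43% of all genes, without the zone 0 and without the hippocampal area 5. With equal width as well they numbered 6, Clcf1 and Il6ra being added. The share of all genes past 2-fold was not counted under any alternative. The median log2 side ratio of the members at 3 days, 1.02, was 0.77 at equal width and 0.58 without the zone. It was 1.44 without the hippocampal area and 1.26 with equal width and without that area, the last 2 chosen after seeing the data. The hippocampal area held 6.16% and 9.62% of the UMIs of the opposite side at 3 and 28 days. It held 0.191% and 0.134% of those of the injured side, so almost only opposite tissue was left out. At 28 days the median of the members was 0.95 and without the zone 0.25. Without the zone the side ratio turned for Clcf1 at 3 days (−0.64) and Cntf at 28 days (−0.19). The Gfap difference of Lifr bins turned to 0.13 and 0.51 on thinning. Zone and equal width leave fewer bins by construction; beyond that the cause was not tested. Another scaling moved the median of all genes at 3 days by −0.11 (TMM), −0.14 (size factors) and −0.10 (UMIs per bin), and at 28 days by −0.16 (UMIs per bin); at 3 days each of these left 4 members past 2-fold, Osm, Lif, Osmr and Socs3, so that Clcf1 and Il6ra lie at the limit. The counts in Gfap-rich tiles stayed within 1.5 times under all 6 alternatives at each time. No paired analysis was possible because each group holds 1 section.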
